A study of Homo sapiens with 24 samples.

Results

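Integrins are the main receptors with which cells hold on to the extracellular matrix. Each receptor pairs an alpha with a beta subunit: the alpha subunit largely sets which matrix protein is bound, and the beta tail inside the cell recruits talin and kindlin and so links the matrix to actin. Epithelial cells are known for laminin receptors (ITGA3 or ITGA6 with ITGB1, and ITGA6 with ITGB4 in hemidesmosomes), for the collagen receptor of ITGA2 with ITGB1, and for receptors of fibronectin and other proteins with an RGD motif (ITGA5 with ITGB1, and ITGAV with ITGB1, ITGB3, ITGB5 or ITGB6). The 10 subunit genes ITGA2, ITGA3, ITGA5, ITGA6, ITGAV, ITGB1, ITGB3, ITGB4, ITGB5 and ITGB6 were taken by symbol from a table of 48162 genes. They had 11 entries there, because ITGB3 was listed at 2 overlapping entries. One of these entries (ENSG00000259753) held 0 counts in all 24 libraries and the other (ENSG00000259207) was used. How reads in the shared part were assigned is not given in the sources used here, so the absolute level of ITGB3 is uncertain.

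The study compared polyploid giant cancer cells (PGCC) with the cells they came from, in PPC1, an established human prostate cancer cell line, to learn how PGCC differ and how both respond to LCL521, a pro-drug (LCL-521 in the labels) that inhibits acid ceramidase. All cells were plated on day 1 and harvested on day 5. The experiment was done 6 times, with all 4 conditions harvested in parallel. Parental cells (UT) received neither irradiation nor drug, and parental cells with LCL521 (UT_LCL521) received 5 µM of the drug for 5 h before harvest. For PGCC, cells were given 8 Gy of radiation at day 2, and at harvest those held back by a 20 micron strainer were used, and PGCC with LCL521 (PGCC_LCL521) also received 5 µM of the drug for 5 h before harvest. There were 6 RNA-seq libraries for each of the 4 conditions, numbered 1 to 6. The parental cells were neither irradiated nor strained, so irradiation, size selection and the giant cell state cannot be told apart, and all libraries come from 1 cell line. These are bulk libraries: fewer cells that use a gene and less of its RNA per cell cannot be told apart. Levels are also shares of the RNA sequenced, and the RNA content per cell was not measured. A gene called lower in PGCC is lower as a share, and its amount per giant cell is not known.

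The libraries held 14835246 to 19906601 counts. Levels are given as CPM (counts scaled to a common library size by TMM), so that 3 counts, taken as the limit that a count of 0 allows, stand at 0.150 to 0.208 CPM. Replicates 4 and 5 of all 4 conditions lay apart from replicates 1, 2, 3 and 6 on the second principal component, which held 16.5% of the variance, and results that rest on these libraries are given with and without them. Of the markers of prostate epithelium, HOXB13, KRT8 and KRT18 were well counted, while KLK2, KLK3, TMPRSS2 and FOLH1 had at most 3 counts in every library. Of the 5 prostate markers tested in PGCC against UT, KRT8 rose and HOXB13 and KRT18 fell. Markers of other cell types (13 genes in the table) summed to between 54.2 and 138 CPM in UT and to between 90.6 and 217 CPM in PGCC, mostly from COL1A2, with CD3E at no more than 3 counts in every library. Of 5 of these tested, COL1A2, COL3A1, PDGFRA and PTPRC (the pan-leukocyte antigen) rose in PGCC, the last pair reaching the level for testing through PGCC only, PTPRC by 1.39 on the log2 scale (SE 0.43, adjusted p = 0.0164). The part of these markers in the integrin results was not tested.

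By CPM, PGCC had more ITGA5 and ITGB6 RNA than parental cells and less ITGA3 RNA, with no overlap between the 6 libraries of each condition. ITGA5 and ITGB6 belong to receptors for fibronectin and for latent TGF-beta, and ITGA3 to a laminin receptor. Of the 10 genes, 3 thus had groups that did not overlap, against 26.5% of 14555 genes. The quasi-likelihood test of edgeR was run over all 13812 genes that passed the filter, with p-values adjusted after Benjamini and Hochberg. At an adjusted p under 0.05 it called 47.4% of them (23.1% higher and 24.3% lower in PGCC). The test called 4 of the 10 genes, ITGA5, ITGB6 and ITGB3 as higher and ITGA3 as lower. ITGB6 and ITGB3 reached the level required for testing (about 10 counts) through the PGCC libraries and not in all UT libraries, so a test of them was possible only because they were high there. Among the other 8 genes the test called 2, ITGA5 and ITGA3. The median log2 fold change of the 10 genes was 0.335, against -0.028 for all genes tested, and 0.264 over the 8 genes with at least 10 counts in every library. With the replicate number as a block, 8 of the 10 genes were called (6 higher and 2 lower), against 56.2% of all genes (27.9% higher and 28.3% lower). Without replicates 4 and 5 it was 9, all but ITGB5 (7 higher and 2 lower), against 54.6% (27.7% higher and 26.9% lower), and with the block as well 9 against 64.3%. The count of 4 in 10 is near the background, and the higher counts of the other fits were not tested against theirs.

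**Figure D1:**
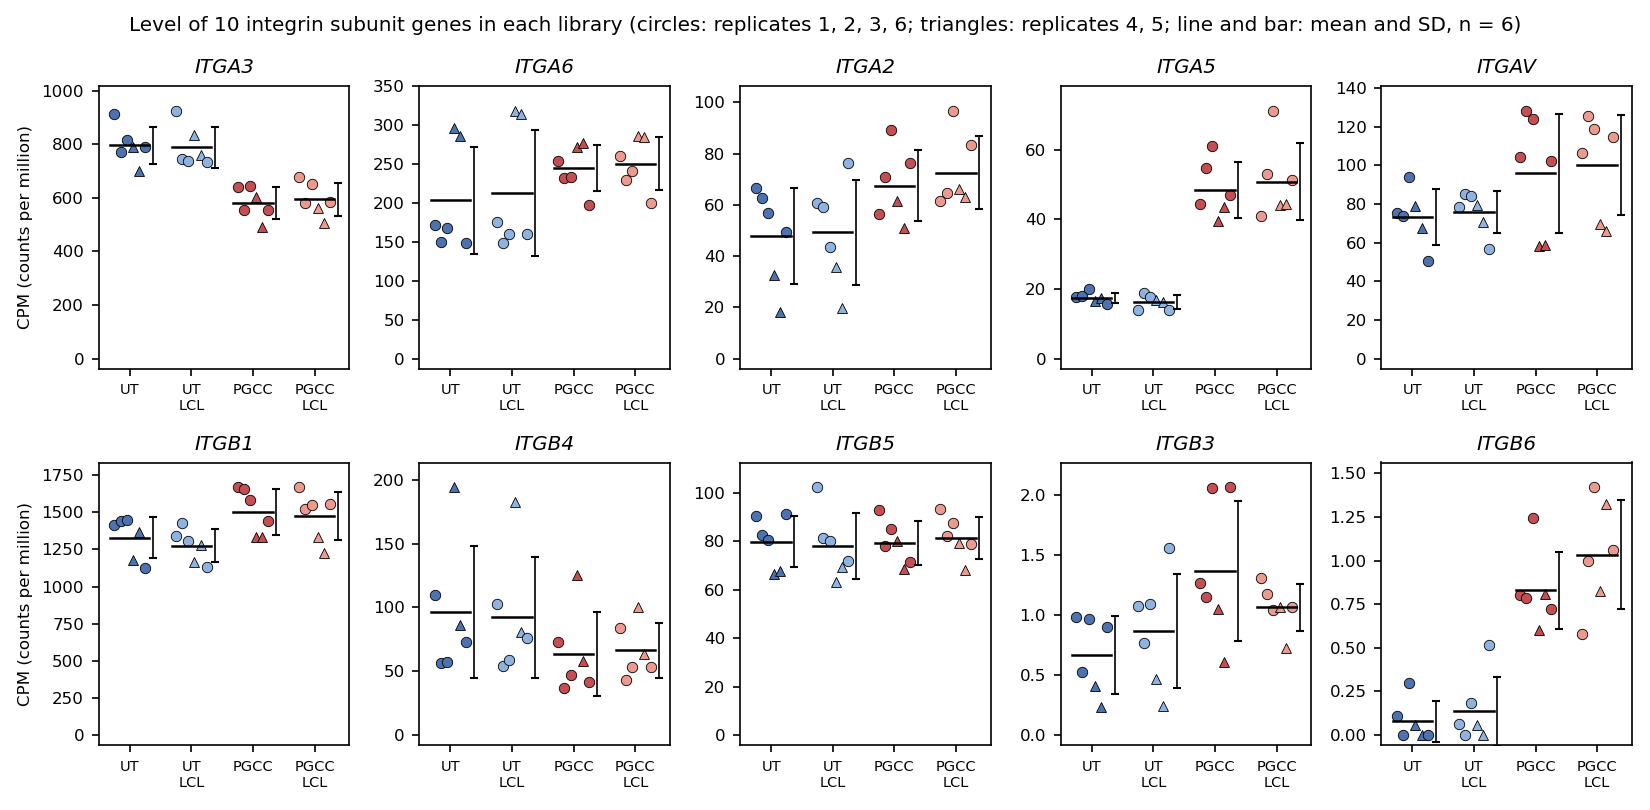
Each panel gives the CPM of 1 gene (y axis, linear) in the 6 libraries of each of the 4 conditions (x axis), with replicates 1, 2, 3 and 6 as circles, replicates 4 and 5 as triangles, a line for the mean and a bar for the SD (n = 6). The PGCC libraries of ITGA5 and ITGB6 lie above all parental libraries of the same arm and those of ITGA3 below them, while in ITGAV the triangles of PGCC lie at 58.2 and 59.0 CPM, apart from the circles at 102 to 128 CPM.

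Of the laminin-binding alpha subunits ITGA3 and ITGA6, only ITGA3 was called in the fit of all 6 replicates without the block. ITGA3 (ENSG00000005884, chr17:48133332-48167845, plus strand, hg19) stood at a lowest, median and highest value of 699, 789 and 911 CPM in UT and of 490, 579 and 643 CPM in PGCC. Every PGCC library lay below every UT library. The log2 fold change was -0.45 (SE 0.08, adjusted p = 4.95e-04), and PGCC were lower in 6 of 6 same-numbered pairs.

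ITGA6 (ENSG00000091409, chr2:173292082-173371181, plus strand, hg19) stood at 149, 170 and 296 CPM in UT and at 198, 244 and 277 CPM in PGCC. The groups overlapped, because replicates 4 and 5 of UT were already at 296 and 286 CPM, near the level of PGCC. The log2 fold change of 0.27 (SE 0.18) did not pass the test (adjusted p = 0.233). It did with the replicate block (0.33, adjusted p = 0.0338) and without replicates 4 and 5 (0.54, adjusted p = 1.37e-04). The difference was positive in replicates 1, 2, 3 and 6 and negative in 4 and 5.

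ITGB4 (ENSG00000132470, chr17:73717408-73753899, plus strand, hg19), the only partner of which is ITGA6, stood at 56.8, 79.6 and 194 CPM in UT and at 36.9, 52.6 and 125 CPM in PGCC. The groups overlapped widely, yet PGCC were lower in 6 of 6 pairs, by 0.28 to 0.81 on the log2 scale. The log2 fold change was -0.59 (SE 0.34) with an adjusted p of 0.164, and -0.58 (SE 0.08) with the replicate block (adjusted p = 1.97e-04). ITGB4 shares part of its locus with GALK1 on the other strand, which held up to 659 counts in a library, and how reads were assigned by strand is not given in the sources used here.

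ITGA2 (ENSG00000164171, chr5:52285156-52390609, plus strand, hg19), the alpha subunit of a collagen receptor, stood at 18.3, 53.2 and 66.6 CPM in UT and at 51.0, 66.2 and 89.1 CPM in PGCC. The lowest UT values were those of replicates 4 and 5, at 32.6 and 18.3 CPM, while in PGCC the same replicates were at 61.6 and 51.0 CPM. PGCC were higher in 5 of 6 pairs. The fit gave a log2 fold change of 0.51 (SE 0.25, adjusted p = 0.113), and with the replicate block it passed the test (0.60, adjusted p = 0.0200). Without replicates 4 and 5 it was 0.33 and passed by a narrow margin (adjusted p = 0.0499).

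ITGA5 (ENSG00000161638, chr12:54789045-54813244, minus strand, hg19), the alpha subunit of the classical fibronectin receptor, had the firmest difference of the 10 genes. It stood at 15.6, 17.4 and 19.9 CPM in UT and at 39.5, 45.7 and 61.1 CPM in PGCC. The lowest PGCC library thus lay far above the highest UT library, and the UT libraries lay close together. In the fit this was a log2 fold change of 1.48 (SE 0.12, adjusted p = 3.94e-07), with differences in the 6 pairs between 1.25 and 1.62.

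The promoter of ITGA5 is shown because this gene had the firmest rise. The sequence is the RefSeq window of 250 bases before to 50 bases after the start (GRCh38.p14, chr12:54419217-54419516, minus strand, printed 5′ to 3′). The capitals mark matches, on either strand, to an AP-1 site (TGANTCA), a GC box (GGGCGG) and a TEAD motif (CATTCC).
ITGA5 promoter: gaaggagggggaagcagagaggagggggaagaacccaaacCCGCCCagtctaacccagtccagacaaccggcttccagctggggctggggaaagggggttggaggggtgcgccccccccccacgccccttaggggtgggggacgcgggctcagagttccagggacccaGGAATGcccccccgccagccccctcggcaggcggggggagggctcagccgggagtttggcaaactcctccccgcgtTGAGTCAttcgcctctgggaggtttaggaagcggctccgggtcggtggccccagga
The window held 1 match of each, that to AP-1 just before the start. Of 35116 promoter windows of this length, 7.71% held the AP-1 letters, 45% the GC box and 14.0% the TEAD letters. It held no CRE (TGACGTCA, in 1.85% of windows) and no TATA box (TATAAA, in 11.5%). These are matches of letters and no measurement of binding was made here.

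ITGAV (ENSG00000138448, chr2:187454792-187545628, plus strand, hg19), the alpha subunit shared by several RGD receptors, stood at 50.5, 74.7 and 94.1 CPM in UT and at 58.2, 103 and 128 CPM in PGCC. The groups overlapped because of PGCC replicates 4 and 5, at 58.2 and 59.0 CPM. In replicates 1, 2, 3 and 6 PGCC were higher, by 0.67 on average on the log2 scale, and in replicates 4 and 5 they were lower, by differences of -0.44 and -0.19. Over all 6 the log2 fold change was 0.40 (SE 0.21, adjusted p = 0.128), also not called with the block (adjusted p = 0.130). Without replicates 4 and 5 it was 0.66 (adjusted p = 0.00218).

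ITGB1 (ENSG00000150093, chr10:33189247-33294720, minus strand, hg19), the common partner of ITGA2, ITGA3, ITGA5 and ITGA6, had the highest count of the 10 genes. It stood at 1128, 1392 and 1446 CPM in UT and at 1331, 1513 and 1668 CPM in PGCC. The groups overlapped, and the differences in the 6 pairs ran from -0.04 to 0.36 on the log2 scale. Its log2 fold change was 0.18 (SE 0.09, adjusted p = 0.0992). It passed the test with the block (adjusted p = 0.0350), without replicates 4 and 5 (0.25, adjusted p = 0.0240) and with library totals in place of TMM (0.28, adjusted p = 0.0121).

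ITGB5 (ENSG00000082781, chr3:124480795-124606674, minus strand, hg19), a partner of ITGAV for vitronectin, stood at 66.8, 81.6 and 91.2 CPM in UT and at 68.8, 79.1 and 93.2 CPM in PGCC. The ranges were nearly the same. The difference had a 95% interval of -0.22 to 0.22 on the log2 scale (adjusted p = 0.996), so a difference of the size seen in ITGA3 lies outside it.

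ITGB3 (ENSG00000259207, chr17:45331212-45421658, plus strand, hg19), also a partner of ITGAV, was near the limit of detection. It stood at 0.233, 0.711 and 0.980 CPM in UT (67 counts in all) and at 0.605, 1.21 and 2.06 CPM in PGCC (144 counts). The groups overlapped, and PGCC were higher in 6 of 6 pairs. The log2 fold change was 1.03 (SE 0.38, adjusted p = 0.0354), and 1.05 with the block (adjusted p = 0.00284). Without replicate 2, 3, 4 or 6, 1 at a time, the call was lost (adjusted p = 0.0666 to 0.0841).

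ITGB6 (ENSG00000115221, chr2:160956177-161128399, minus strand, hg19), the epithelial partner of ITGAV that binds latent TGF-beta, was almost uncounted in UT. It stood at 0, 0.029 and 0.301 CPM in UT (8 counts in 6 libraries) and at 0.601, 0.797 and 1.25 CPM in PGCC (88 counts). Every PGCC library lay above every UT library. The pooled ratio was 10.3 (95% interval 5.02 to 24.7, exact Clopper-Pearson, counting error only), and the log2 fold change 3.28 (SE 0.55, adjusted p = 2.67e-04). The level in PGCC remained far below that of the other subunits except ITGB3. Without a filter on low counts the median log2 fold change over 29759 genes was 0.252, against -0.028 with the filter. In the fit without it 4406 genes were called as higher and 3269 as lower.

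The promoter of ITGB6, the gene with the largest fold difference, is printed beside that of ITGA5 for contrast (RefSeq, GRCh38.p14, chr2:160200223-160200522, minus strand, 5′ to 3′). It has no capitals because none of the 5 motifs matched.
ITGB6 promoter: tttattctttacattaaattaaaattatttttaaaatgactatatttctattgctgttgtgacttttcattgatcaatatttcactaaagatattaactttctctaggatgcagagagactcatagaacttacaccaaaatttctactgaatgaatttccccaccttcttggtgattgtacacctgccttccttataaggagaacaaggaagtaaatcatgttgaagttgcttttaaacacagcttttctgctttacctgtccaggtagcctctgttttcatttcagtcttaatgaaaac
Its GC content was 31.7%, against 69.3% for ITGA5 and a median of 58.7% over all promoter windows. A promoter was given for 7 of the 10 genes, and an AP-1 match was found only in the window of ITGA5 among the 12 windows of these 7 genes.

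The beta subunits differ in the part of the tail that binds talin and kindlin, which is shown because all 5 beta genes are compared here. The lines give the end of the coding sequence, without the stop codon, of the principal transcript in GENCODE v29 (5′ to 3′). Capitals mark codons that spell an NPxY motif, a known docking site of the phosphotyrosine-binding domains of such adaptors. Only these letters were searched for, so a site of the form NxxY without the proline is not marked.
ITGB1: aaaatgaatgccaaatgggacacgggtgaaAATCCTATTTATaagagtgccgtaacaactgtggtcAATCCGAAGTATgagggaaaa
ITGB3: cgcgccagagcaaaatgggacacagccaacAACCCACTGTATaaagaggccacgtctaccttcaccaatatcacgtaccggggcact
ITGB5: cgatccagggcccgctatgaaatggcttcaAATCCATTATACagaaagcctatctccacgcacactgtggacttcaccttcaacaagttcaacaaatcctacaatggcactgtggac
ITGB6: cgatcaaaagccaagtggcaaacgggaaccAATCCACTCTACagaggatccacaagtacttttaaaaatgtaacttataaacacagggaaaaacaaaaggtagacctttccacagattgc
ITGB1 held 2 NPxY motifs in its last 180 coding bases and ITGB3, ITGB5 and ITGB6 held 1 each. The tails of ITGB3, ITGB5 and ITGB6 also hold NxxY without the proline, so these are not counts of docking sites. ITGB4, which has a long tail of its own that binds plectin, held none, there or elsewhere in its 1822 codons. Per length of transcript ITGB1 was the highest of the 5 in all 4 conditions.

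**Figure D2:**
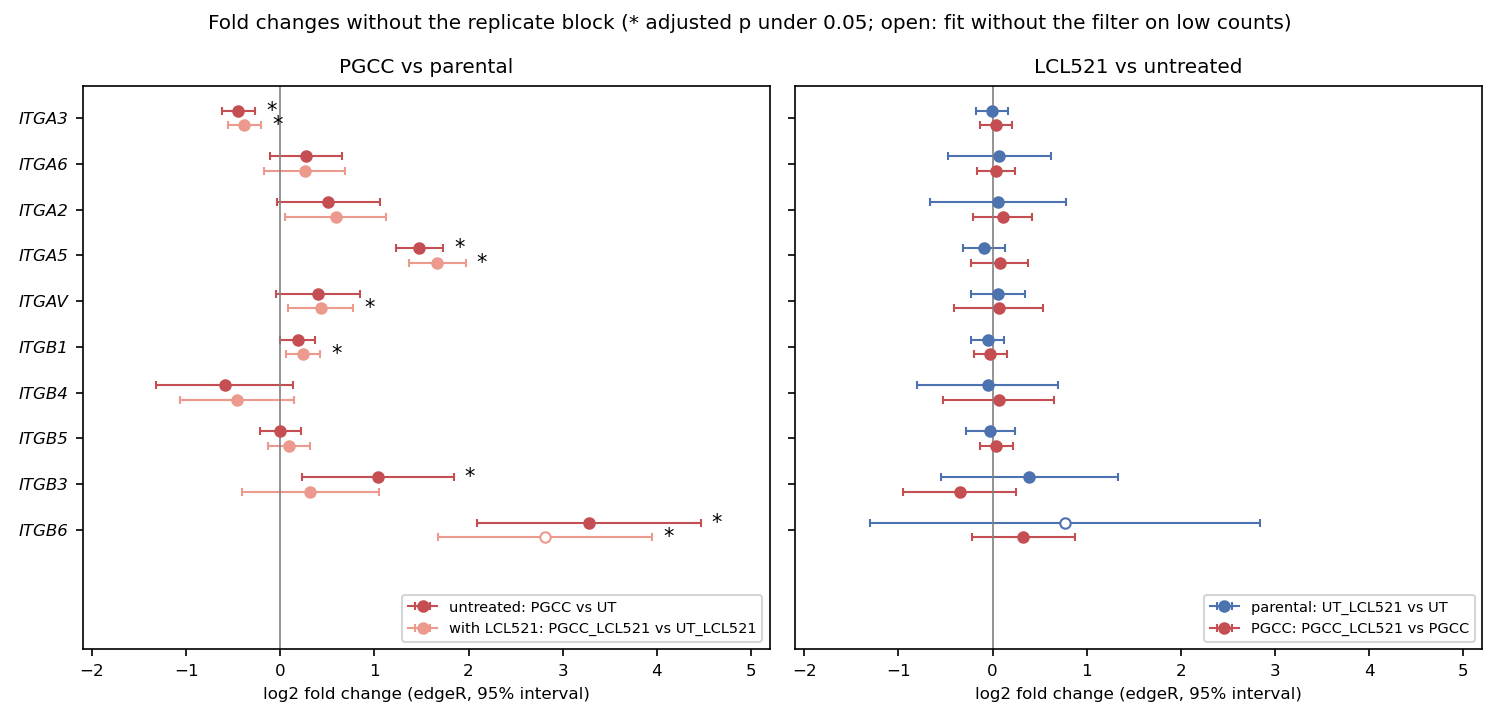
Log2 fold changes with 95% intervals (x axis) are given for each gene (y axis), for PGCC against parental cells in both arms on the left and for LCL521 against no drug in both populations on the right, with asterisks for an adjusted p under 0.05 and open symbols for the fit without a filter on low counts. ITGA5 at 1.48 and 1.67 and ITGB6 at 3.28 and 2.81 stand apart on the left, and all intervals on the right include 0.

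The comparison was repeated in the cells that had received LCL521, with none of the same libraries but with replicates of the same numbers. The test there called 4 of 9 genes, against 48.9% of 13818 genes (25% higher and 23.9% lower): ITGA5, ITGAV and ITGB1 as higher and ITGA3 as lower. ITGB6 was not tested, since it did not reach the level for testing. With the block 7 genes were called (5 higher and 2 lower), against 56.3% of all genes (29.5% higher and 26.8% lower). As without the drug, 3 of the 10 genes had groups that did not overlap, against 27.8% of all genes, and they were again ITGA5, ITGB6 and ITGA3.

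ITGA5 stood at 14.0, 16.6 and 18.9 CPM in UT_LCL521 and at 40.9, 47.9 and 71.1 CPM in PGCC_LCL521, with no overlap. Here the log2 fold change was 1.67 (SE 0.14, adjusted p = 4.40e-07). ITGA3 stood at 732, 753 and 924 CPM and at 506, 583 and 676 CPM, again with no overlap, and its log2 fold change was -0.38 (SE 0.08, adjusted p = 0.00164).

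ITGB6 stood at 0, 0.061 and 0.518 CPM in UT_LCL521 (14 counts) and at 0.577, 1.03 and 1.42 CPM in PGCC_LCL521 (108 counts). The highest parental library was close to the lowest PGCC library. The pooled ratio was 7.37 (95% interval 4.21 to 13.9, counting error only). The fit without a filter gave a log2 fold change of 2.81 (SE 0.55, adjusted p = 3.39e-04). In that fit the median over 29659 genes was 0.252, and 4571 genes were called as higher and 3464 as lower. In a two-sided exact permutation test of mean log2 CPM, p was 0.00217, the smallest that 924 divisions of 6 against 6 libraries allow (0.0289 after adjustment over 80 tests, 40 of this kind and 40 on pairs). On same-numbered pairs the exact permutation p was 0.0313, the smallest that 64 sign changes allow, and did not pass after adjustment (0.144). Both p-values were the same for ITGA3 and ITGA5, and for all 3 genes without the drug. Groups without overlap, and 6 pairs of the same sign, fix these p-values. They therefore restate the lack of overlap for these genes and add no support to it.

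The remaining genes of this arm lay closer together. ITGB1 stood at 1129, 1293 and 1426 CPM in UT_LCL521 and at 1228, 1537 and 1669 CPM in PGCC_LCL521, a log2 fold change of 0.24 (SE 0.09, adjusted p = 0.0302). ITGAV stood at 57.0, 79.1 and 85.4 CPM and at 66.1, 111 and 126 CPM, a log2 fold change of 0.43 (SE 0.16, adjusted p = 0.0403). Both pairs of groups overlapped, and both calls were fragile: that of ITGAV was lost without replicate 1, 2, 3 or 6 (adjusted p = 0.0924 to 0.173) and that of ITGB1 without replicate 1, 3 or 6 (adjusted p = 0.0751 to 0.163).

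ITGA2 (0.59, adjusted p = 0.0639), ITGA6 (0.26, adjusted p = 0.305) and ITGB4 (-0.46, adjusted p = 0.199) did not pass the test and passed it with the block (adjusted p = 0.0199, 0.0474 and 0.00723). These values rest in part on replicates 4 and 5. Without them ITGA6 was higher by 0.57 (adjusted p = 1.79e-04) and ITGAV by 0.65 (adjusted p = 4.41e-04), against 52.5% of all genes called. ITGA2 was then at 0.38 and no longer passed, with the block (adjusted p = 0.0573) or without it (0.0806), and ITGB4 was at -0.28 and passed with the block (adjusted p = 0.0130) but not without it (0.280). With the block and without these replicates 57.5% of all genes were called. For ITGB4 PGCC_LCL521 were lower in 6 of 6 pairs, at 43.3, 58.5 and 100.5 CPM against 54.1, 78.4 and 182 CPM. ITGB5 (0.09, 95% interval -0.14 to 0.32, adjusted p = 0.497) and ITGB3 (0.32, 95% interval -0.41 to 1.05, adjusted p = 0.461) passed in none of these fits, ITGB3 being at 0.06 without replicates 4 and 5. ITGB3 stood at 0.245, 0.919 and 1.55 CPM and at 0.721, 1.06 and 1.31 CPM.

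LCL521 itself moved none of the 10 genes past the threshold, with or without the block, when all 6 replicates were used. Groups with and without the drug overlapped for all 10 genes, and were apart for 0.0344% of all genes in parental cells and 0.0824% in PGCC. In parental cells edgeR called 0 of 13277 genes (71 had an unadjusted p under 0.05) and, with the block, 115 (0.866%), with none of the 9 integrin genes tested among them. In PGCC it called 1 of 14151 genes (0.00707%) and, with the block, 234 (1.65%), again with none of the 10. DESeq2 also called none of the integrin genes in either population. The smallest p values among them in parental cells were those of ITGA5 (-0.09, 95% interval -0.31 to 0.13) and ITGB3 (0.39, 95% interval -0.55 to 1.33), the latter higher with the drug in 6 of 6 pairs. In PGCC they were those of ITGB6 (0.33, 95% interval -0.22 to 0.87) and ITGB3 (-0.35, 95% interval -0.95 to 0.25). The intervals differ in what they leave possible. For ITGA3, with the block, they ran from -0.10 to 0.08 in parental cells and from -0.03 to 0.10 in PGCC, while the few counts of ITGB3 and ITGB6 leave wide intervals. ITGA2 in PGCC had an unadjusted p of 0.0257 with the block (0.11, adjusted p = 0.267). ITGB4 was called in PGCC with the block when replicates 4 and 5 were left out (0.24, adjusted p = 0.0200), a setting in which 0.91% of genes were called. Its difference was between 0.18 and 0.35 in replicates 1, 2, 3 and 6, was -0.32 in replicate 4 and 0.13 in replicate 5.

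The effect of LCL521 was not shown to differ between PGCC and parental cells for any of these genes. The interaction term called 0 of 14555 genes (60 at an unadjusted p under 0.05, and 148 with the block). ITGB3 had the smallest p of the 10 (-0.73, SE 0.52, unadjusted p = 0.174), with the block -0.65 (SE 0.32, unadjusted p = 0.0565). Its counts summed to 67 in UT, 87 in UT_LCL521, 144 in PGCC and 112 in PGCC_LCL521. ITGA5 came next (0.17, 95% interval -0.19 to 0.53).

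**Figure D3:**
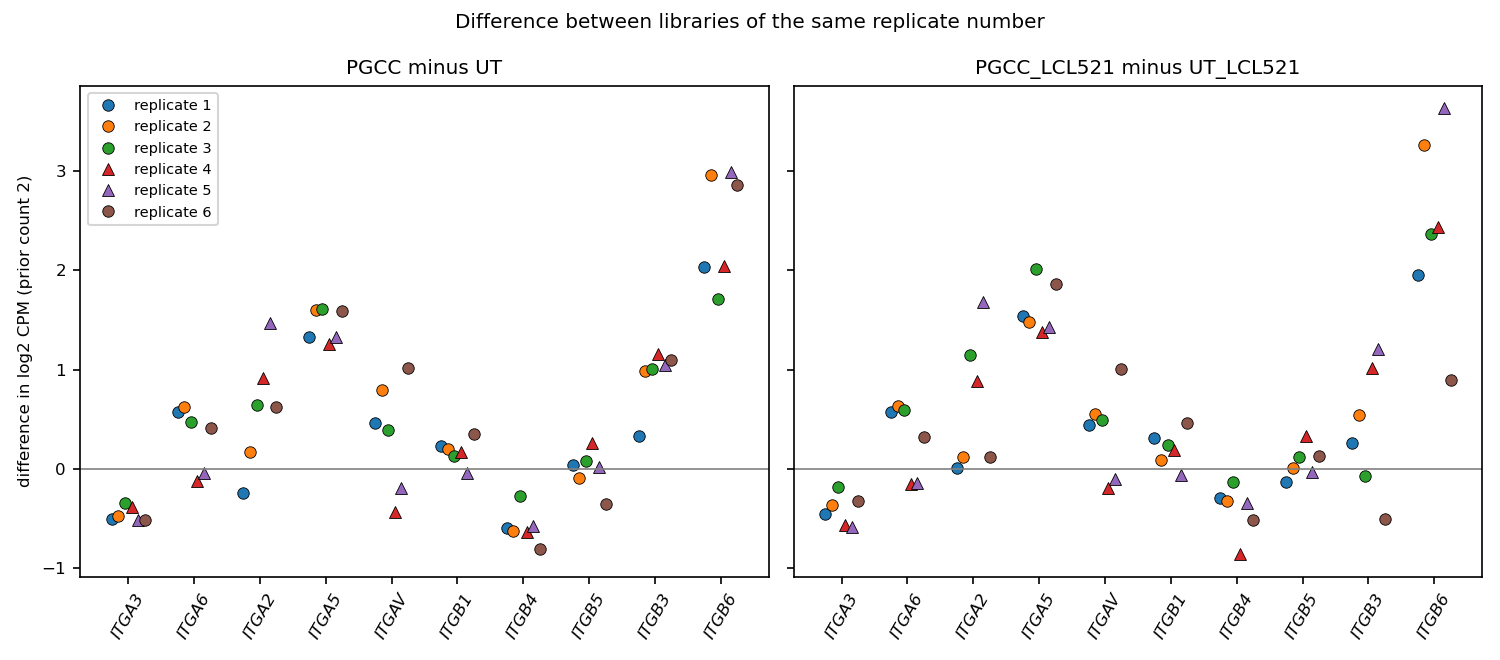
The difference in log2 CPM between the PGCC library and the parental library of the same number (y axis) is plotted for each gene (x axis), without the drug on the left and with it on the right. The 6 points of ITGA5 lie between 1.25 and 1.62 on the left, and the triangles of replicates 4 and 5 lie below 0 in ITGAV and ITGA6, where the other 4 points lie above it, in both panels.

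The replicate numbers carried much of the variation in several genes. Among the UT libraries ITGA6 stood at 149 to 171 CPM in replicates 1, 2, 3 and 6 and at 296 and 286 CPM in 4 and 5, and among those with LCL521 at 148 to 176 CPM and at 318 and 315 CPM. In PGCC the sets were closer, at 198 to 254 CPM and at 272 and 277 CPM. ITGA2 showed the reverse order, with parental values of 49.5 to 66.6 CPM in the larger set and of 32.6 and 18.3 CPM in replicates 4 and 5. For ITGAV the sets were alike in UT (50.5 to 94.1 CPM against 78.8 and 67.4 CPM) and apart in PGCC (102 to 128 CPM against 58.2 and 59.0 CPM) and in PGCC_LCL521 (106 to 126 CPM against 69.8 and 66.1 CPM). The difference between these sets was not tested, since the sets were found from the data.

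ITGB4 kept nearly the same order of libraries in every condition. Replicate 4 was highest, followed by 1 and 5, and replicate 2 was lowest in all 4 conditions. The replicate number took 79.2% of the sum of squares of its log2 CPM over the 24 libraries and the population (PGCC or parental) 16.6%. For ITGB5 the replicate number took 72.7% and the population 0.92%, and for ITGA6 63.7% and 17.7%. The population took most in ITGA5 (93.7%), ITGB6 (79.9%) and ITGA3 (74.0%). LCL521 took at most 1.62%, in ITGB1.

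**Figure D4:**
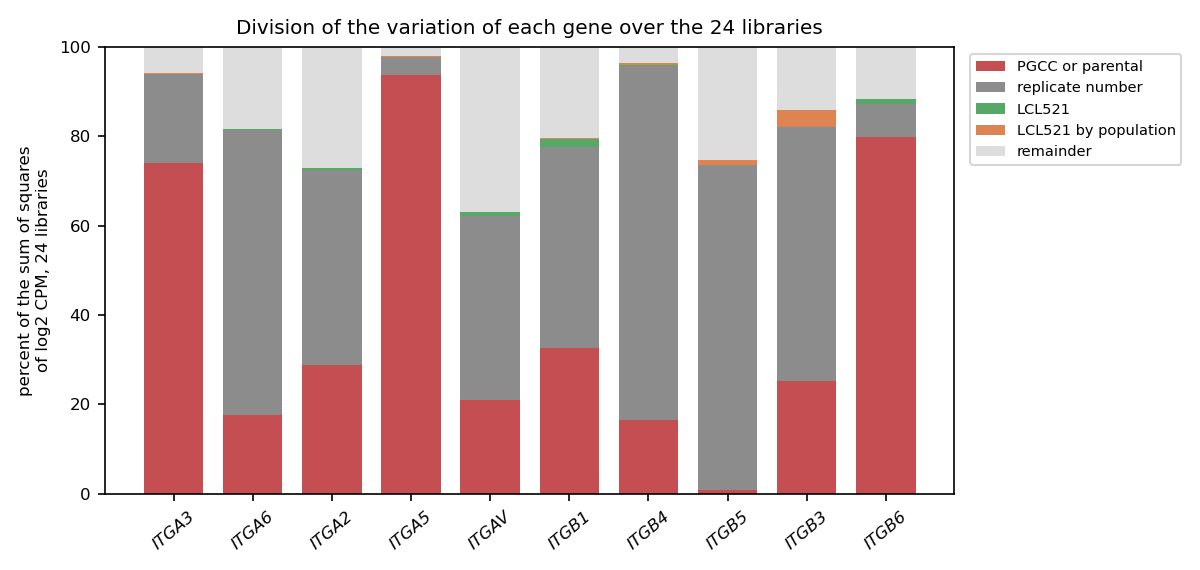
Stacked bars divide the sum of squares of log2 CPM over the 24 libraries (y axis, in percent) of each gene (x axis) into population, replicate number, LCL521, their interaction and a remainder. Population fills most of the bar in ITGA5 (93.7%), ITGB6 (79.9%) and ITGA3 (74.0%) and replicate number in ITGB4 (79.2%), ITGB5 (72.7%) and ITGA6 (63.7%).

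After condition means were removed, some genes rose and fell together over the 24 libraries. These values are descriptions: the points are 6 sets of 4 libraries with the same number, which are not independent of each other. Pearson's r was 0.82 between ITGA2 and ITGB3, 0.79 between ITGAV and ITGB1, 0.71 between ITGA3 and ITGB5 and 0.66 between ITGA6 and ITGB4. It was -0.81 between ITGA2 and ITGA6 and -0.77 between ITGA6 and ITGB3. Among 14554 other genes, those most like ITGB4 were SEZ6L2 (r = 0.95), MYO1D (0.94) and GAA (0.92). For ITGB6 they were LA16c-349E11.1 (0.77), LINC00843 (0.73) and RP11-640M9.2 (0.72), with few counts of ITGB6 behind each value.

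Per length of transcript the genes kept much the same order in all conditions. Levels in CPM per kb used the gene lengths of the table. In UT the means were 351.5 ± 36.8 (SD, n = 6) for ITGB1, 145.3 ± 12.6 for ITGA3 and 34.3 ± 11.6 for ITGA6, each apart from the next in every library. Then came ITGB5 (18.3 ± 2.43), ITGB4 (16.3 ± 8.77), ITGAV (10.4 ± 2.04), ITGA2 (6.07 ± 2.39) and ITGA5 (3.49 ± 0.290), where the ranges of neighbours overlapped. ITGB3 (0.167 ± 0.0805) and ITGB6 (0.0167 ± 0.0252) were last, with overlapping ranges. In PGCC the first 4 kept their places, with ITGB1 at 397.3 ± 40.9 and ITGA3 at 106.0 ± 10.9, and ITGA5 at 9.68 ± 1.61 stood before ITGA2 at 8.58 ± 1.78, whose range it overlapped.

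The mixture of alpha subunits shifted with these levels. Of the summed CPM per kb of the 5 alpha genes, ITGA3 held a median of 74.3% in UT (66.8% to 77.6%) and of 59.7% in PGCC (56.0% to 61.3%). ITGA5 held 1.74% in UT (1.55% to 1.97%) and 5.53% in PGCC (4.39% to 6.18%), with no overlap for either gene. ITGA6 held 13.8% in UT (13.3% to 25.2%) and 22.2% in PGCC (19.9% to 29.3%), with overlapping ranges. Of the 5 beta genes ITGB1 held 91.4% in UT and 93.4% in PGCC, with overlapping ranges. The summed level of the alpha genes had a median of 197 CPM per kb in UT and 179 in PGCC, and that of the beta genes 400.1 and 426. These are shares of RNA, and surface receptors were not measured.

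Other integrin subunits were few. Of the 16 genes outside the 10, 6 were tested in PGCC against UT. Of these 4 were called, all as higher, against 47.4% of all genes (23.1% higher). They were ITGB7 (2.25, SE 0.38), ITGA7 (2.03, SE 0.33), ITGA10 (1.38, SE 0.30) and ITGB2 (1.03, SE 0.30). All 4 reached the level for testing through PGCC only, with medians of at most 1.51 CPM in UT and 3.97 CPM in PGCC, so a test of them too was possible only because they were high there. ITGB7 and ITGB2 are known as leukocyte subunits and ITGA7 as a laminin receptor of muscle. ITGB8, a further partner of ITGAV, stood at a median of 20.7 CPM in UT and 25.5 CPM in PGCC (0.39, SE 0.18, adjusted p = 0.0794, and 0.0296 with the block). In PGCC_LCL521 against UT_LCL521 ITGB8 passed the edgeR test without the block (0.39, adjusted p = 0.0409). ITGAE, which pairs with ITGB7, did not pass (0.21, adjusted p = 0.273). ITGA8 and ITGAX had at most 1 count in any library. ITGA1, a collagen receptor subunit that did not reach the level for testing here, had 0 to 3 counts in the UT libraries and 8 to 19 in the PGCC libraries. In PGCC_LCL521 against UT_LCL521 7 of the 16 genes were tested and 6 called, all as higher, against 48.9% of all genes. ITGA1, ITGA7 and ITGB2 reached the level for testing there through PGCC_LCL521 only. ITGB7 was at that level in every library of neither condition, with 0 to 14 counts in UT_LCL521 and 6 to 34 in PGCC_LCL521. Of the 3 genes at that level in every UT_LCL521 library, 2 were called.

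Genes of the matrix ligands were mostly higher in PGCC where they were called. Of 19 laminin and collagen genes tested, 10 rose and 1 fell in PGCC, with a median log2 fold change of 0.37 against -0.03 for all genes. COL6A3, a chain of collagen VI, rose by 2.22 (SE 0.27, adjusted p = 1.48e-05), from a median of 1.83 to 8.95 CPM. LAMA5 fell by 0.43 (SE 0.14, adjusted p = 0.0188). Of 16 genes of RGD and matricellular ligands, 12 rose and 2 fell, with a median of 0.81. FN1, fibronectin, the ligand of ITGA5, rose by 2.37 (SE 0.26, adjusted p = 6.23e-06), from 8.77 to 44.7 CPM, and CYR61 by 2.41. POSTN fell by 2.21 and EDIL3 by 0.73. The counts of these lists are read against 47.4% called in all genes.

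Of 28 adaptors on the inner side of the receptors 10 rose and 2 fell, against 47.4% of all genes called. With the block 11 rose and 3 fell, against 56.2%. Without replicates 4 and 5 the balance changed: 9 rose and 7 fell, against 54.6%. With both changes 12 rose and 8 fell, against 64.3%. FERMT3, LIMS2 and TNS1 reached the level for testing through PGCC only. Of the 25 at that level in every UT library 8 rose and 2 fell with all replicates and no block. TNS1 rose by 2.91 (SE 0.54) from a median of 0.169 CPM, LPXN, a relative of paxillin, by 1.25, while ZYX, zyxin, fell by 0.82 (SE 0.07, adjusted p = 5.12e-07) from 1300.0 to 742 CPM and PARVA by 0.32. Of 25 signalling genes 4 rose and 2 fell (median -0.02), against 47.4% of all genes called. NEDD9 was higher by 1.48 and BCAR1, both scaffolds of the Cas family, by 0.55. DOK1 was lower by a log2 fold change of -0.56 and KRIT1 by -0.20. With the block 4 signalling genes rose and 6 fell, against 56.2% of all genes called (27.9% higher and 28.3% lower). Without replicates 4 and 5, 7 rose and 3 fell, against 54.6%.

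Of 15 membrane partners 7 rose and 3 fell (median 0.35), against 47.4% of all genes called. CD9, a tetraspanin, rose by 1.24 (SE 0.08, adjusted p = 9.47e-08) and TSPAN1 by 0.81, and SLC3A2 fell by 0.81 and SDC1 by 0.56. Of 8 hemidesmosome genes COL17A1 and KRT14 reached the level for testing through PGCC only. Of the other 6, 3 rose and 1 fell, against the same 47.4%. KRT14 had a median of 0 CPM in UT and of 4.04 CPM in PGCC, and COL17A1 of 0.064 and 3.60 CPM. CD151, the tetraspanin partner of ITGA3 and ITGA6, fell by 0.34 (SE 0.07, adjusted p = 0.00170), from 207 to 159.5 CPM.

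With the block LCL521 called a few genes around the receptors though none of the receptors. Of all genes 0.866% were called in parental cells and 1.65% in PGCC. CYR61 and CTGF, matricellular ligands, fell in both populations, CYR61 by 0.50 in parental cells (adjusted p = 0.00902) and by 0.35 in PGCC (adjusted p = 4.20e-05), and CTGF by 0.76 (adjusted p = 0.00713) and by 0.36 (adjusted p = 1.87e-05). CAV1 fell by 0.18 (adjusted p = 0.0445) and 0.15 (adjusted p = 0.0356). LAMA3 rose (0.22, adjusted p = 0.00172) and SDC4 fell (-0.15, adjusted p = 0.0312) in PGCC. Without replicates 4 and 5 none of the list genes was called in parental cells with the block, where 0.0227% of all genes were, so the calls of CYR61, CTGF and CAV1 in these cells were lost. In PGCC 2 membrane partners, CAV1 and SDC4, were called with the block, and 1 membrane partner when replicates 4 and 5 were also left out. At least 1 of the calls of CAV1 and SDC4 in PGCC was thus lost. None of the genes named in this paragraph passed without the block, and the difference between the populations was not called for any of them.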

How the data were processed

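RNA was sequenced from 24 libraries, 6 for each of 4 conditions. The authors deposited whole-number read counts per gene, not normalized. The submitters' processing notes name CASAVA, STAR, HTSeq, DESeq2 and the build hg19, and whether counting used strand is not given in the sources used here. Groups came from the labels. The integrin genes and the other gene lists were chosen with earlier results of these data known.

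Counts were analysed with R 4.3.3, edgeR 4.0.16 and limma 3.58.1. For each comparison its 12 libraries (all 24 for the interaction) were filtered with filterByExpr (minimum count 10, total 15), scaled by TMM and fitted with glmQLFit and glmQLFTest over all genes, with Benjamini-Hochberg adjustment and a threshold of 0.05. DESeq2 1.42.0, other scalings and filters, the replicate block and left-out replicates were the alternatives. The steps were run on simulated data in which few genes changed. Each changed by a larger fold change than was fitted for any of the 10 integrin genes except ITGB6. Smaller or more widespread changes were not simulated. Log2 CPM used a prior count of 2. Exact permutation tests were two-sided. Intervals from counts are 95% and cover counting error only.

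The replicate numbers were taken to pair the libraries, since deviations from the group means correlated between same-numbered libraries in every pair (0.171 to 0.813 over the 4 comparisons, above the limit of 0.1). The library of the same number was the most alike for 5 of 6 in PGCC against UT and for 6 of 6 in both drug comparisons. In PGCC_LCL521 against UT_LCL521 it was so for only 3 of 6. The part of replicates 4 and 5 in these correlations was not tested. All 10 integrin genes were named in the comparisons of populations. For LCL521 those past the threshold, or otherwise the 2 with the smallest p, were named. All other integrin subunits that passed the filter were named. Of other lists up to 2 rises and 2 falls past the threshold were named. Named outside this rule, after their values were seen, were ITGA1, ITGA8, ITGAX, COL1A2 and COL3A1, for LCL521 also ITGA2, ITGA3, ITGB4, CYR61, CTGF, CAV1, LAMA3 and SDC4, and genes named for low counts or for how they passed the filter. No library or column was left out, and libraries of a condition differed by more than sampling noise (chi-square per degree of freedom 4.69 to 110). Some genes of the other lists are not reported here.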

Additional observations from a re-analysis of the deposited data

How the results depend on the processing

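The number of the 10 integrin genes called in PGCC against UT was 4, and it was 8 with the replicate block, 9 without replicates 4 and 5 and 9 with both changes. Leaving out 1 replicate at a time gave 3 to 5. With LCL521 the number was 4, with the block 7, and 2 to 4 with 1 replicate left out, the lowest without replicate 3. For LCL521 in PGCC it was 0 and became 1, ITGB4, with the block and without replicates 4 and 5. Leaving out 1 replicate gave 0 to 0 for the drug in either population and the interaction. The other counts stayed within 1.5 times. The cause of these changes was not tested. Among the fold changes of single genes, the sign turned in 8 settings, all for ITGB5 in PGCC against UT, which lies near 0: DESeq2 (0.01), RLE factors (0.01), library totals (0.092), 10 counts in every library (0.036), the block (0.003), and without replicate 2, 5 or 6, with values from -0.046 to 0.067 over the 6 left out in turn. Of the rest 346 kept their side of the threshold, 25 passed it and 16 no longer did. The call of ITGB3 in PGCC against UT was also lost without a filter on low counts (adjusted p = 0.0519). That of ITGB1 with LCL521 was lost with RLE factors (0.0503) and without a filter (0.171), and that of ITGAV with all 24 libraries in 1 fit (0.0914) and without a filter (0.0568). The few counts of ITGB3 (410 in all) and ITGB6 (218) limit what can be said of them.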
